A study of Mus musculus with 2 samples.

Results

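Cytochrome P450 enzymes were described as the rows of both expression files whose symbol reads Cyp, digits, letters and digits, with an optional closing letter. This pattern took 100 of 25668 genes. It leaves out Cyp51, and no symbol with a pseudogene ending was among the rows. The members were taken by name and not by their values, though with earlier results of these data known.

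Cytochrome P450 enzymes are haem proteins that insert an oxygen atom into small lipophilic molecules. Most sit in the endoplasmic reticulum and take electrons from the reductase Por, and a few sit in mitochondria and take them from ferredoxin. Families named with the lowest numbers clear drugs, smoke constituents and other foreign compounds, a further group turns arachidonic acid into epoxides and hydroxy acids, and the remaining ones make or break down steroids, bile acids, vitamin D and retinoic acid. Epithelia outside the liver carry their own selection of these enzymes.

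RNA was measured in organoids of mouse fallopian tube (oviduct) epithelium, grown in culture as small hollow epithelial bodies. One library came from organoids with the genotype Trp53 KO, titled casP, and 1 library from WT organoids, titled cas-nFTE. The WT organoids came from a mouse of B6J.129(B6N) background with the allele Gt(ROSA)26Sortm1(CAG-cas9*,-EGFP)Fezh, in which the CAG promoter drives Cas9 and EGFP. Both libraries carry the treatment label conditioned medium. The comparison addresses what loss of p53, the tumour suppressor encoded by Trp53, changes in this epithelium, and the labels do not state the number of mice, the guide or whether the knockout organoids are 1 clone.

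With 1 library of each genotype, no difference has a replicate check and no test between genotypes was possible. Values are TPM, a transcript abundance corrected for gene length and expressed relative to the library's whole, so levels can be set beside each other between genes. Depth was estimated from low values and transcript lengths. The estimated reads summed to 27720046 in the KO library and 100209301 in the WT library, and both totals are approximate. Ratios carry exact 95% Clopper-Pearson intervals from these reads, which cover counting error only. Trp53 stood at 2.42 TPM in the KO library and 83.2 TPM in the WT library. The 6 epithelial markers Epcam, Cdh1, Krt8, Krt18, Krt19 and Krt7 summed to 14124 TPM in KO and 9275 TPM in WT. Krt19 alone was 8176 TPM in KO and 2313 TPM in WT. Epcam, Cdh1, Krt8 and Krt18 had the lower TPM in KO and Krt7 the higher. The list's median difference, KO minus WT, was −0.11 on the log2(TPM + 1) scale. The 7 stromal markers summed to 0 and 0.0974 TPM and the 4 endothelial markers to 0.0517 and 0.0903 TPM in KO and WT. The 4 basal and squamous markers summed to 2899.5 TPM in KO and 4.57 TPM in WT, and all 4 were at least 2-fold higher. The 5 multiciliated markers, all at least 2-fold lower, summed to 52.9 TPM in KO and 173 TPM in WT, with Ccdc153, Tppp3 and Dynlrb2 listed at 0 in KO. The 6 hepatocyte markers summed to 3.79 TPM in KO and 7.73 TPM in WT, nearly all of it Apoa2. Of the 4 secretory markers, Ovgp1, Sox17 and Wt1 were at least 2-fold lower in KO, and Pax8 differed by 0.04 on the log2(TPM + 1) scale. In such bulk RNA, fewer cells of a type and less RNA per cell cannot be told apart.

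Few of the P450 genes were expressed in this epithelium. Of the 100 members, 29 were above 0 in the KO library and 49 in the WT library, and 48 were listed at 0 in both. Among all genes 54.8% were above 0 in KO, 62.7% were above 0 in WT and 35.6% were at 0 in both. A level of at least 1 TPM in either library was reached by 17 of the 100 members, against 45.5% of all genes. The 48 members at 0 include the liver enzymes Cyp7a1 and Cyp8b1 of bile acid synthesis, Cyp1a2, Cyp3a11, and aromatase, Cyp19a1, which makes oestrogen. Of the 15 Cyp2c genes, a large liver subfamily, only Cyp2c68 had reads, at 0 TPM in KO and 0.224 TPM in WT. Just above the limit of 1 TPM stood Cyp4a12a (0.770 TPM in KO and 1.35 TPM in WT), and just below it Cyp2d10 (0.137 TPM in KO and 0.642 TPM in WT).

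The members together held 81.8 TPM in the KO library and 464 TPM in the WT library, a KO to WT ratio of 0.176. A single gene, Cyp2f2, made up 2.67% of this sum in KO and 70.6% in WT. Without it the sums were 79.6 TPM in KO and 136 TPM in WT, a ratio of 0.583. In the KO library Cyp2s1 held the largest share, 44.0%, against 1.55% in WT.

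Of the 17 expressed members, 15 had the lower TPM in the KO library and 2 had the higher. For 8 that reached 1 TPM in WT only and 1 that reached it in KO only the direction follows from that limit, and of the 8 that reached it in both, 7 were lower in KO and 1 was higher. The counting interval of the ratio lay wholly below 1 for 14 and wholly above 1 for 2, and Cyp7b1 had no reads in KO. For these counts of direction and interval the share of all genes was not worked out. Fold calls were made on log2(TPM + 1) for genes with a mean of at least 1 TPM, and the added 1 makes differences of low genes smaller than their TPM ratio. By this rule 15 members were measured, since Cyp7b1 and Cyp3a13 had a lower mean. At least 2-fold lower in KO were 8 of them, against 15.3% of 11228 measured genes, and 2 were at least 2-fold higher, against 8.35%. The median difference was −1.38 for the members and −0.17 for all measured genes. Because a gene can pass the mean through 1 library alone, the split matters. The share of all genes past the limit was worked out without this split. Of the 8 members with at least 1 TPM in both libraries, 4 were lower, 1 was higher and 3 lay within 2-fold, while of the 7 others 4 were lower, 1 was higher and 2 lay within 2-fold. Quantile normalization gave 6 lower and 2 higher members, against 11.8% and 11.5% of all measured genes, and moved the median of all genes to 0.03.

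**Figure D1:**
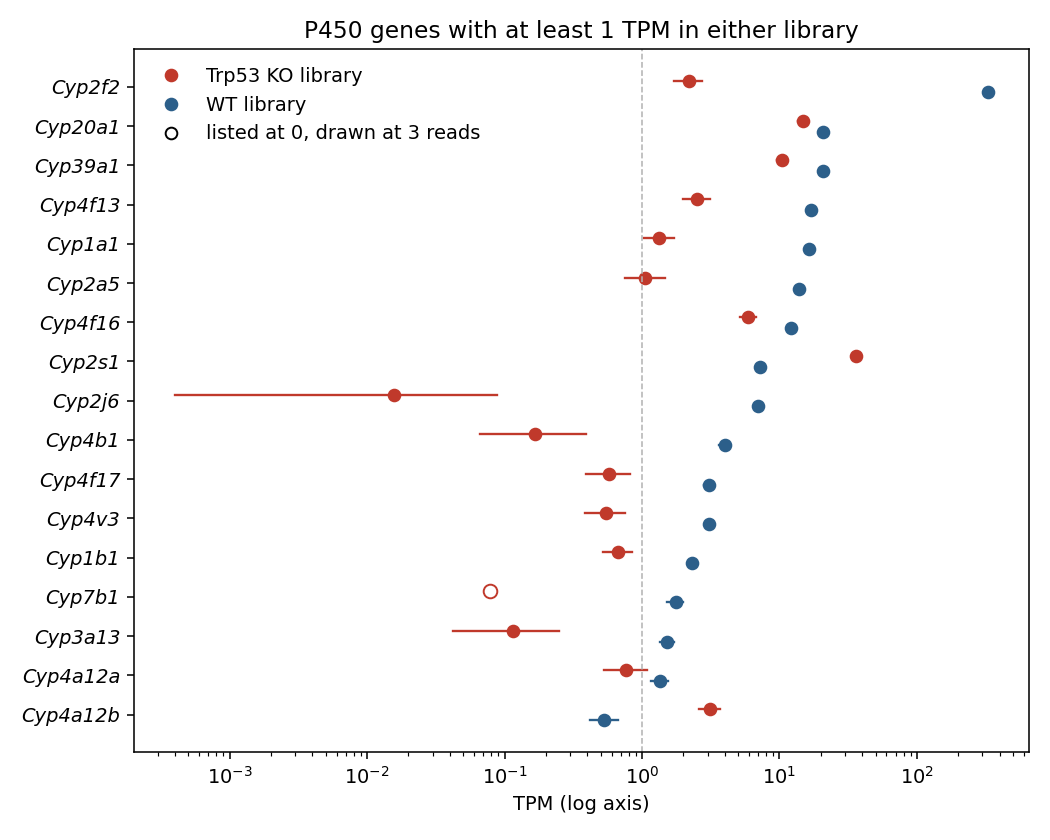
TPM of the 17 P450 genes with at least 1 TPM in either library, on a log axis, in the Trp53 KO library (red) and the WT library (blue); bars are exact 95% Poisson intervals from the reads, and the open circle marks a gene listed at 0, drawn at 3 reads. The KO value lies left of the WT value for all but Cyp2s1 and Cyp4a12b.

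**Figure D2:**
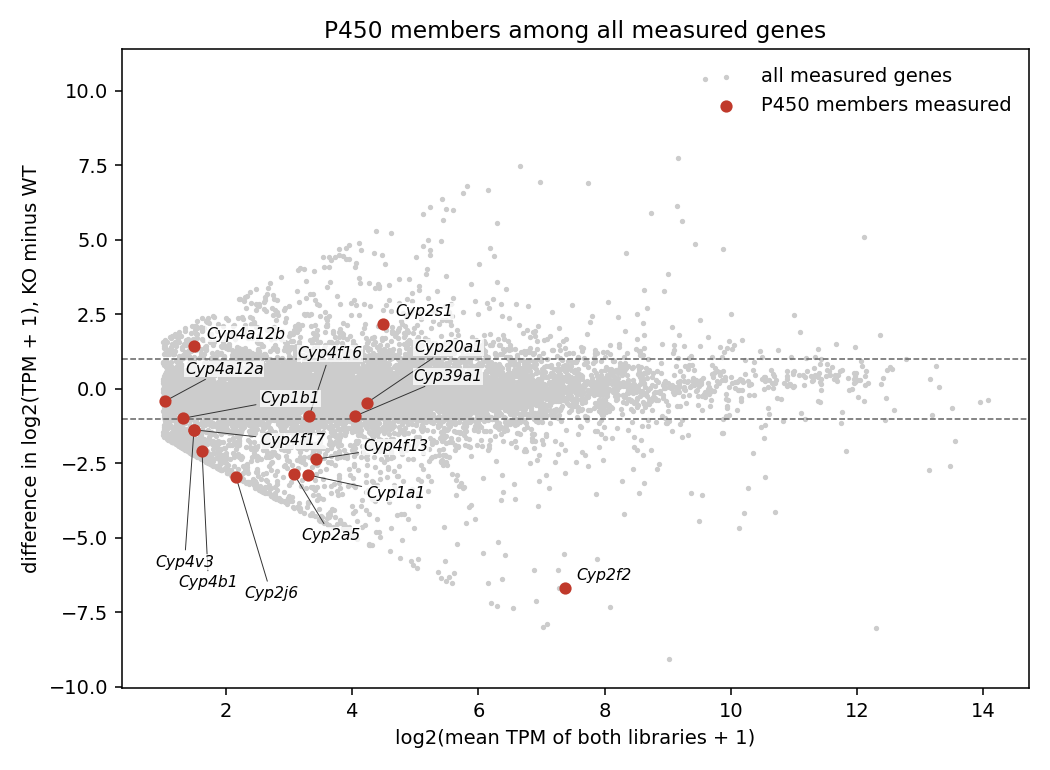
Difference in log2(TPM + 1), KO minus WT, against log2(mean TPM + 1) for all 11228 genes with a mean of at least 1 TPM (grey) and the 15 measured P450 members (red); dashed lines mark a 2-fold difference. Cyp2f2 lies at −6.69 and Cyp2s1 at 2.18, and 5 members lie between the lines.

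The enzymes of foreign compound metabolism, from the Cyp1, Cyp2 and Cyp3 families, held 5 expressed members. Cyp2f2, Cyp1a1 and Cyp2a5 reached 1 TPM in both libraries and had the lower TPM in KO, while Cyp1b1 and Cyp3a13 reached it in WT only, which fixes their direction. This class has 50 members, of which 10 were above 0 in KO and 20 in WT, and their TPM summed to 6.10 in KO and 364 in WT. Of the 4 measured, 3 were at least 2-fold lower and 0 were higher, against 15.3% and 8.35% of all measured genes. Classes were assigned by subfamily, and Cyp2s1, at 36.0 TPM in KO and 7.17 TPM in WT, was placed with the fatty acid enzymes. Another placing of Cyp2s1 would change the counts and sums of both classes. Cyp2f2, known in mouse for activating naphthalene in club cells of the airway, was 2.18 TPM in KO from 72 reads, against 327 TPM in WT from 36358 reads. Its KO to WT ratio was 0.00666, with a counting interval of 0.00521 to 0.00839. It ranked 9557th by TPM among all genes in KO and 422nd in WT. Of 4 club cell markers, Scgb1a1, Scgb3a2 and Bpifa1 were listed at 0 in both libraries, and Scgb3a1 was 30.6 TPM in KO and 236 TPM in WT. The summed levels of secretory markers were 76.6 TPM in KO and 174 TPM in WT, and the part of a change in cell types in the Cyp2f2 difference was not tested.

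Cyp2s1, an enzyme of surface epithelia that acts on fatty acid derivatives, lies with Cyp2f2 in 1 gene cluster on chromosome 7 and went the other way. It was 36.0 TPM in KO and 7.17 TPM in WT, a KO to WT ratio of 5.02 with an interval of 4.68 to 5.38. The basal and squamous markers given above were higher in KO as well, and their part in this value was not tested. The cluster runs over 13 members from Cyp2s1 to Cyp2t4, of which 3 were above 0 in KO and 8 in WT. Beside Cyp2s1, Cyp2f2 and Cyp2a5, the other 10 stayed below 1 TPM in both libraries. Genes of chromosome 7 as a whole had a median difference of −0.22, with 7.25% of them higher in KO by the same rule and 16.4% lower.

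The stretches before the starts of Cyp2f2 and Cyp2s1 are shown because the pair share a gene cluster and have opposite differences. Each is the 250 bases upstream of the start given by RefSeq for GRCm38.p6, read 5′ to 3′ on the gene's strand, with CG dinucleotides in capitals. The Cyp2f2 stretch is chr7:27119705-27119954 on the plus strand and the Cyp2s1 stretch is chr7:25816526-25816775 on the minus strand.
Cyp2f2: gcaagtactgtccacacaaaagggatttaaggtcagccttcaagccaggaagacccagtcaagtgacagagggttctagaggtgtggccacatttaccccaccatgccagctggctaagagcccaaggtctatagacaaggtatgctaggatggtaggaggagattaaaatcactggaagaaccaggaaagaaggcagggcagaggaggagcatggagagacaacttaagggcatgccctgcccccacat
Cyp2s1: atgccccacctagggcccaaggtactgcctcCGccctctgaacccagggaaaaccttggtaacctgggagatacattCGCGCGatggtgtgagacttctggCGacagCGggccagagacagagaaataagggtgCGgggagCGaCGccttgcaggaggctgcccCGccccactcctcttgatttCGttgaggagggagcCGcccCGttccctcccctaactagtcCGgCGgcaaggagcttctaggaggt
The Cyp2f2 stretch holds 0 CG dinucleotides at 51.6% G and C, and the Cyp2s1 stretch holds 15 at 62.0%. The median over 27025 promoters of the same length was 6 CG at 52.0%. The Cyp2f2 stretch holds 1 match to the p53 consensus half-site, a palindrome searched once for both strands, and the Cyp2s1 stretch holds none. Such a match occurs in 7.18% of all promoters and in 1 of the 12 expressed members with a RefSeq promoter, and it is a description of letters, not of binding.

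Cyp1a1 and Cyp1b1, which oxidise polycyclic aromatic hydrocarbons and oestrogens and are classic targets of the aryl hydrocarbon (Ah) receptor, were both lower in KO. Cyp1a1 was 1.34 TPM in KO from 66 reads, against 16.3 TPM in WT from 2711 reads, a ratio of 0.0819 with an interval of 0.0632 to 0.105. Cyp1b1 was 0.668 TPM in KO and 2.31 TPM in WT, a ratio of 0.289 with an interval of 0.222 to 0.370. On the log2(TPM + 1) scale the Cyp1b1 difference was −0.99 and just missed the 2-fold limit. Cyp1a2, the neighbour of Cyp1a1 and an enzyme mostly of liver, was listed at 0 in both libraries.

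The genes of the receptor and its partner Arnt lay within 2-fold. Ahr itself was 8.71 TPM in KO and 15.7 TPM in WT and Arnt was 11.2 TPM in KO and 9.16 TPM in WT. Among 5 measured genes of the Ah receptor axis, 1 was past 2-fold upward in KO and 1 downward, against 8.35% and 15.3% of all measured genes. The median difference was 0.26. The upward gene, Nqo1, reached 1 TPM in KO only and the downward gene, Arnt2, in WT only, which fixes their direction. Nqo1, a quinone reductase that both the Ah receptor and NRF2 induce, was 7.64 TPM in KO and 0.314 TPM in WT. Arnt2, a relative of Arnt, was 0.0238 TPM in KO and 10.9 TPM in WT. Tiparp, which restrains the receptor and is induced by it, was 8.42 TPM in KO and 5.20 TPM in WT, and the repressor Ahrr was listed at 0 in KO and at 0.0353 TPM in WT.

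The Ah receptor binds the core GCGTG, searched on both strands as GCGTG or CACGC. The promoters of the pair are printed because each holds 1 such core within 250 bases of the start, shown in capitals, at chr9:57697363-57697612 on the plus strand for Cyp1a1 and chr17:79715062-79715311 on the minus strand for Cyp1b1 (RefSeq, GRCm38.p6).
Cyp1a1: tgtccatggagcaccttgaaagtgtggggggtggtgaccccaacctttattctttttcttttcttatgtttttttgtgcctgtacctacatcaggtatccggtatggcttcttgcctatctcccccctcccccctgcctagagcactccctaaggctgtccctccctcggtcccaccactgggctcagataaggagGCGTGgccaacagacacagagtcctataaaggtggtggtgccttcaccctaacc
Cyp1b1: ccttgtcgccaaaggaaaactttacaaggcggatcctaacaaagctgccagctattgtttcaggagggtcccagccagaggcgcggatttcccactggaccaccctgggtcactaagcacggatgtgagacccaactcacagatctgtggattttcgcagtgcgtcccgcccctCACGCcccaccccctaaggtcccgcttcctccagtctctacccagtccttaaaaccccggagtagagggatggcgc
This core stood in 28.2% of all promoters. Among members it stood in 5 of the 12 expressed ones with a promoter entry, in 7 of 27 with reads but below 1 TPM, and in 3 of 37 listed at 0 in both libraries. The median number of CG dinucleotides was 3 in the expressed members and 2 in those at 0, and the median G and C content was 53.2% against 44.4%, so these promoters also differ in base composition. Cyp2s1 had no core in its window, Cyp20a1 had 2, and Cyp4f16 and Cyp4v3 had 1 each. A core is a description of letters, not of binding, and bases outside these windows were not searched.

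Cyp2a5, the coumarin hydroxylase of mouse, was 1.06 TPM in KO and 13.8 TPM in WT, a ratio of 0.0768 with an interval of 0.0547 to 0.107 from estimated reads. Its near-identical relative in the same cluster is Cyp2a4, a steroid hydroxylase. Cyp2a4 was listed at 0 in KO and at 0.406 TPM in WT from 42 reads. Against a floor of 3 reads it was 4.16-fold lower in KO, without the counting error of the WT value. The coding sequences of these paralogs are 98.4% identical, so reads can be shared between them and their single values are uncertain. Their sum was 1.06 TPM in KO and 14.2 TPM in WT, a ratio of 0.0746. The upstream stretches are shown to let the likeness be seen, chr7:26835089-26835337 for Cyp2a5 and chr7:26306943-26307191 for Cyp2a4, both on the plus strand of GRCm38.p6 from RefSeq, with the bases that differ in capitals.
Cyp2a5: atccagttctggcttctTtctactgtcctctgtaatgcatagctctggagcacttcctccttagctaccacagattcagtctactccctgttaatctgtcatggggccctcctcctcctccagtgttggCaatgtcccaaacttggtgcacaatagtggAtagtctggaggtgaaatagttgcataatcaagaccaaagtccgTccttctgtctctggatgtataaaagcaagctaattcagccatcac
Cyp2a4: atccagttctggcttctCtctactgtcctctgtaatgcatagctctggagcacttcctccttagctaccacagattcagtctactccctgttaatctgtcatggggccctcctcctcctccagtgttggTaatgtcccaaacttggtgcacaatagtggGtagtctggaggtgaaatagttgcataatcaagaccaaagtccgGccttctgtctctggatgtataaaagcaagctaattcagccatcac
They differ at 4 of 249 bases.

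Cyp3a13, of the subfamily that clears many drugs, was 0.115 TPM in KO from 6 reads, against 1.52 TPM in WT from 268 reads, a ratio of 0.0753 with an interval of 0.0274 to 0.166. The other 8 Cyp3a genes stayed below 1 TPM in both libraries. The 9 Cyp2d genes on chromosome 15 summed to 0.703 TPM in KO and 0.933 TPM in WT. Their members did not go one way. Cyp2d22 was 0.367 TPM in KO from 18 reads, against 0.0910 TPM in WT from 15 reads, a ratio of 4.04 with an interval of 1.92 to 8.61. Cyp2d10 had a ratio of 0.214 with an interval of 0.0565 to 0.575, and since coding sequences in this subfamily are up to 94.7% identical, reads may be shared. None of the 5 Cyp2b genes had reads in KO, and Cyp2b9 stood at 0.331 TPM in WT, at least 3.67-fold lower in KO.

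Enzymes of fatty acids and eicosanoids held the largest part of the expressed members in number, and differences in both directions met in their sum. Of the 30 members of this class 13 were above 0 in KO and 16 in WT, with sums of 49.8 TPM in KO and 55.7 TPM in WT. Of the 9 measured, 5 were lower in KO past the 2-fold limit, against 15.3% of all measured genes. Higher past it were 2, Cyp2s1 and Cyp4a12b, against 8.35%. Of these, Cyp4f13 and Cyp2s1 reached 1 TPM in both libraries. Cyp2j6, Cyp4b1, Cyp4f17 and Cyp4v3 reached it in WT only and Cyp4a12b in KO only, which fixes their direction. The 8 Cyp4f genes that lie together on chromosome 17, omega-hydroxylases of fatty acids and leukotrienes, summed to 9.23 TPM in KO and 32.3 TPM in WT. Cyp4f13 was 2.52 TPM in KO and 17.1 TPM in WT, a ratio of 0.148 with an interval of 0.116 to 0.185. Cyp4f17 was 0.573 TPM in KO and 3.08 TPM in WT, a ratio of 0.186 with an interval of 0.125 to 0.270. Cyp4f16 was nearer to even, at 5.91 TPM in KO and 12.0 TPM in WT, and its difference of −0.92 missed the 2-fold limit. At the edge of the cluster Cyp4f39, an omega-hydroxylase of the skin lipid barrier, had 0.194 TPM in KO from 9 reads. It was listed at 0 in WT, and its KO value was 10.1-fold higher than the floor of 3 reads. Its counting intervals were 0.0889 to 0.369 TPM in KO and 0 to 0.0237 TPM in WT. Reads of Cyp4f13, Cyp4f16 and Cyp4f17 are estimates, and the coding sequence of Cyp4f16 is 92.3% identical to that of Cyp4f37, which was listed at 0 in both libraries.

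On chromosome 4, where genes as a whole were higher in KO with a median difference of 0.62 and 28.8% at least 2-fold higher, expressed P450 genes went both ways. Cyp2j6, an epoxygenase of arachidonic acid, was 0.0157 TPM in KO from 1 read, against 6.92 TPM in WT from 1486 reads. The ratio was 0.00226 with an interval of 5.73e-05 to 0.0126. The other 7 Cyp2j genes reached at most 0.0825 TPM, in Cyp2j9 in WT. Cyp4b1, which hydroxylates fatty acids and activates a furan toxin in lung, was 0.166 TPM in KO and 3.98 TPM in WT, a ratio of 0.0415 with an interval of 0.0164 to 0.0986.

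Cyp4a12b and Cyp4a12a, neighbours that make an omega-hydroxylated arachidonic acid, differed in direction. Cyp4a12b was 3.12 TPM in KO from 132 reads, against 0.533 TPM in WT from 76 reads, a ratio of 5.84 with an interval of 4.37 to 7.86. Cyp4a12a was 0.770 TPM in KO and 1.35 TPM in WT, a ratio of 0.572 with an interval of 0.383 to 0.831, and after quantile normalization its difference was 0.12, of the opposite sign. Their coding sequences are 98.6% identical and reads can be shared, so the single values are uncertain. The sum of both was 3.89 TPM in KO and 1.88 TPM in WT, a ratio of 2.07, with a difference of 0.76 on the log2(TPM + 1) scale that is below the 2-fold limit. Cyp4a12b made up 80.2% of the sum in KO and 28.4% in WT.

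Elsewhere in this class Cyp4v3, the mouse relative of the human gene mutated in a crystalline retinal dystrophy, was 0.549 TPM in KO and 3.08 TPM in WT, a ratio of 0.178 with an interval of 0.125 to 0.248. Cyp2u1, a fatty acid hydroxylase, was listed at 0 in KO and at 0.259 TPM in WT, 6.68-fold lower against the floor of 3 reads. Epoxide hydrolases open the epoxides that P450 enzymes make. Ephx1, the microsomal epoxide hydrolase, was 60.0 TPM in KO and 364 TPM in WT, and Ephx4 was 0.962 TPM in KO and 28.9 TPM in WT. Both, the measured members of this list of 4, were lower past the 2-fold limit, against 15.3% of all measured genes. Their median difference was −3.26. Ephx1 reached 1 TPM in both libraries and Ephx4 in WT only, which fixes the direction of Ephx4. The skin enzyme Ephx3 went the other way at a low level, 0.226 TPM in KO and 0.00671 TPM in WT. Ephx2, the soluble enzyme that hydrolyses epoxides of arachidonic acid, was listed at 0 in KO and at 1.12 TPM in WT.

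**Figure D3:**
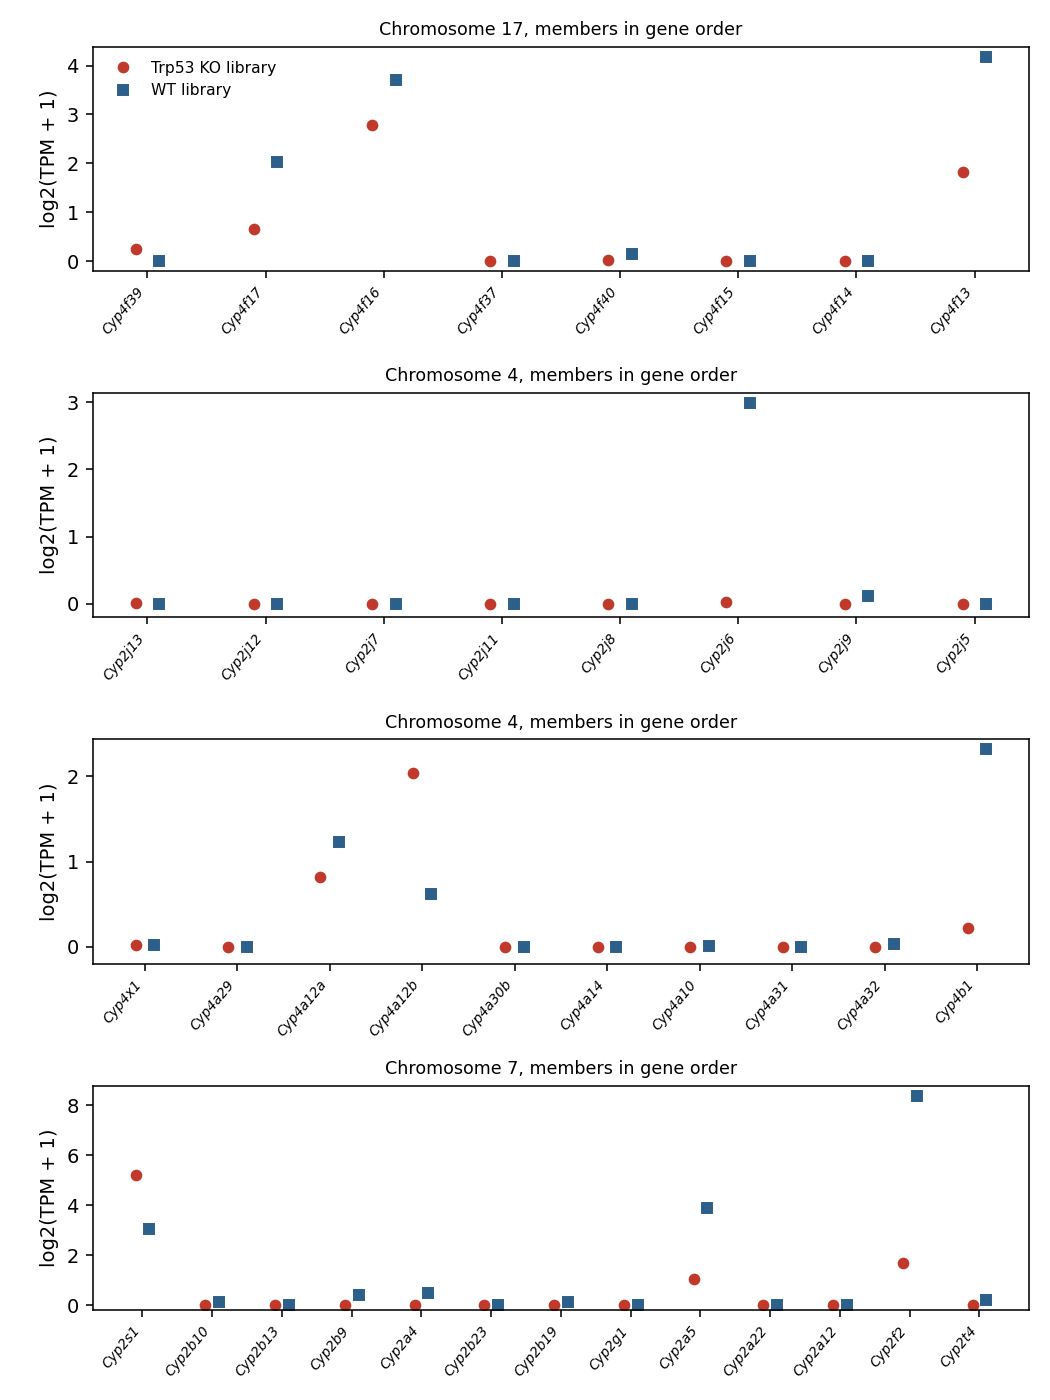
Levels as log2(TPM + 1) of P450 members in gene order in the 4 clusters that hold an expressed member, on chromosomes 17, 4, 4 and 7, in the Trp53 KO library (red circles) and the WT library (blue squares). In each cluster 1 to 3 members stand above 1 TPM, with Cyp2s1 and Cyp4a12b higher in KO and the others lower.

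Enzymes of bile acid and oxysterol metabolism had 2 expressed members of 6. Cyp39a1, which hydroxylates a brain-derived oxysterol and is otherwise a liver enzyme, was 10.4 TPM in KO and 20.6 TPM in WT, a ratio of 0.507 with an interval of 0.464 to 0.555. Cyp7b1, which clears oxysterols and hydroxylates the steroid DHEA, was listed at 0 in KO and at 1.75 TPM in WT from 226 reads. Against the floor of 3 reads it was 22.4-fold lower in KO. At the KO depth its WT level would be worth 67.2 reads. Cyp27a1, a mitochondrial sterol hydroxylase, had 1 read in each library, and Cyp46a1, which makes that brain oxysterol, was at 0 in KO and at 0.138 TPM in WT. Nr1h3, an oxysterol receptor (LXR alpha), was 0.184 TPM in KO and 2.27 TPM in WT, while its relative Nr1h2 was 22.2 TPM in KO and 40.5 TPM in WT. Nr1h3 was the one gene at least 2-fold lower of 5 measured nuclear receptors linked to P450 control, whose median difference was −0.81, and 0 were higher, counts near the 15.3% and 8.35% of all measured genes. Nr1h3 reached 1 TPM in WT only, which fixes its direction. The drug-sensing receptors Nr1i2 and Nr1i3 stood below 0.1 TPM in both libraries.

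Cyp20a1, for which no substrate is settled, was among the highest members in both libraries and moved least of those above 10 TPM. It was 14.9 TPM in KO and 20.9 TPM in WT, a ratio of 0.713 with an interval of 0.651 to 0.780. On the log2(TPM + 1) scale its difference was −0.46, against −0.17 for the median gene.

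None of the P450 enzymes that make steroid hormones reached 1 TPM. Of the 6 members, 0 were above 0 in KO and 3 in WT, with Cyp11a1, which starts steroid synthesis by cutting the cholesterol side chain, at 0 TPM in KO and 0.261 TPM in WT. Cyp17a1 had 1 read in WT and none in KO. Of 5 steroidogenic and gonadal markers none had a mean of 1 TPM, with Star at 0.509 TPM in KO and 1.18 TPM in WT. Other steroid-converting enzymes were present. Of 9 measured dehydrogenases and reductases 3 were past 2-fold lower and 1 higher in KO, within 2 genes of the 15.3% and 8.35% found over all measured genes, with a median difference of −0.84. Srd5a1, a steroid reductase that makes dihydrotestosterone, was 64.8 TPM in KO and 22.2 TPM in WT, and Hsd17b11 was 27.1 TPM in KO and 105 TPM in WT. Hsd17b2, which inactivates oestradiol, was 2.28 TPM in KO and 6.65 TPM in WT, and Hsd3b7, of bile acid synthesis, was 7.88 TPM in KO and 21.1 TPM in WT.

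The vitamin D and retinoic acid enzymes stayed below 1 TPM in both libraries. Cyp24a1, which inactivates vitamin D and is induced by its receptor, was listed at 0 in KO and at 0.260 TPM in WT from 55 reads, at least 5.45-fold lower. The receptor gene Vdr was 0.467 TPM in KO and 1.58 TPM in WT. Cyp27b1, which activates vitamin D, had 1 read in KO and 7 in WT, and its ratio of 0.481 had an interval of 0.0107 to 3.74. Of the enzymes that destroy retinoic acid, Cyp26b1 was 0.423 TPM in KO from 40 reads, against 0.0126 TPM in WT from 4 reads, a ratio of 33.7 with an interval of 12.2 to 129. Cyp26a1 was 0.0316 TPM in KO from 1 read, against 0.169 TPM in WT from 18 reads, and its ratio of 0.187 had an interval of 0.00449 to 1.18 that includes an even level.

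Genes that make and carry retinoic acid differed in both directions. Of 7 measured members of the retinoid list, 4 were past 2-fold lower and 1 was higher in KO. The shares of all measured genes were 15.3% and 8.35%. The median difference of the list was −1.27. Of the lower genes, Rdh10 and Rara reached 1 TPM in both libraries. Aldh1a1 and Stra6 reached it in WT only, which fixes their direction. The synthetic enzyme Aldh1a3 was 12.9 TPM in KO and 1.03 TPM in WT, while its relative Aldh1a1 was 0.181 TPM in KO and 10.9 TPM in WT. Rdh10, which oxidises retinol, was 44.9 TPM in KO and 110.0 TPM in WT, Stra6, the retinol importer, 0.573 TPM in KO and 4.54 TPM in WT, and Rara, a retinoic acid receptor, 4.01 TPM in KO and 12.3 TPM in WT.

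Por, the reductase that feeds electrons to the microsomal enzymes, was 225 TPM in KO and 217 TPM in WT. Fdx1 and Fdxr, which feed the mitochondrial enzymes, were 25.3 and 8.27 TPM in KO and 29.1 and 7.54 TPM in WT. Fdxr is known as a p53 target. Of 10 measured electron partners 1 was past 2-fold lower and 0 were higher, the lower one being Cyb5r1, a cytochrome b5 reductase relative, at 22.0 TPM in KO and 46.5 TPM in WT. Their median difference was −0.39, against −0.17 for all measured genes. Of 12 measured genes of haem synthesis and breakdown 2 were lower and 0 were higher, with a median difference of −0.25. Both lists' counts lie near the 15.3% lower and 8.35% higher of all measured genes. The lower haem genes were Uros, at 4.98 TPM in KO and 11.4 TPM in WT, and Fech, which inserts iron to finish haem, at 3.67 TPM in KO and 9.87 TPM in WT. Alas1, the first and rate-limiting step, was 21.9 TPM in KO and 26.1 TPM in WT.

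**Figure D4:**
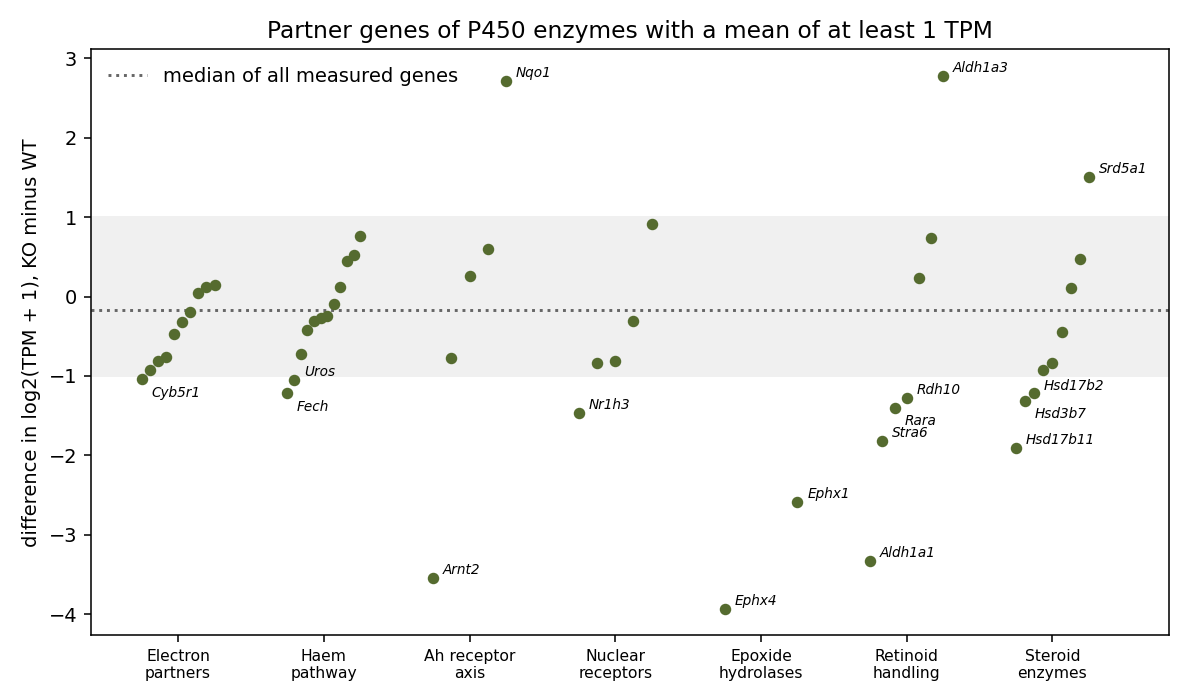
Difference in log2(TPM + 1), KO minus WT, for genes with a mean of at least 1 TPM in 7 lists of genes that work with P450 enzymes; each point is a gene, the grey band is within 2-fold and the dotted line is the median of all measured genes, −0.17. Of the 10 electron partners 9 lie in the band, and the 2 epoxide hydrolases measured lie below it.

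Depth bears on the members seen in 1 library. Of the 23 members above 0 in WT and listed at 0 in KO, 13 had a WT level that would be worth over 3 reads at the KO depth, and for the other 10 a difference was not detectable at this depth. Above 0 in KO and at 0 in WT were 3 members, Cyp4f39 with 9 reads and Cyp3a16 and Cyp2j13 with 1 read each.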

How the data were processed

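RNA of 2 libraries was sequenced from strand-preserving paired-end libraries, per the labels' protocols. The authors deposited TPM for 25668 genes per library, made on GRCm39 according to the submitters' processing notes. For the aligner, the counter and the annotation, the sources used here name nothing. The members and gene lists were chosen with earlier results of these data known. Of the lists, 2 genes are not reported here. Samples were grouped by genotype labels.

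TPM was compared as log2(TPM + 1), KO minus WT, at a mean of at least 1 TPM and a 2-fold limit. Named are all members with at least 1 TPM in either library, some lower ones, and up to 4 list genes in each direction past 2-fold, beside cell type markers. Ahr, Arnt, Tiparp, Ahrr, Por, Fdx1, Fdxr, Alas1, Nr1h2, Nr1i2, Nr1i3, Vdr, Ephx2, Ephx3, Ptgis and Tbxas1 were chosen after their values were seen. Genes with few reads pile up at multiples of 1 read divided by length, which gave 0.0565 TPM in KO and 0.0168 TPM in WT for 1 read at 1000 bases. Lengths came from GENCODE M21. With merged exons, 22.6% of 10453 genes over 50 reads in both libraries were within 0.02 of whole reads in both, against 0.160% by chance. For 40 of 52 members with reads, a merged exon or transcript length gave whole reads, and for 12 reads were estimated. Several lengths could be tried per member, and a listed 0 is whole at any length. The 0.160% thus does not apply to members. The 6 expressed members with estimated reads are Cyp2s1, Cyp2a5, Cyp4b1, Cyp4f13, Cyp4f16 and Cyp4f17. A library listed at 0 was given a floor of 3 reads. Folds against this floor leave out counting error in the other library. The read recovery and the fold calls were run on simulated data made with the same lengths, so wrong lengths could not show there. Alternatives were other pseudocounts, filters, scalings, fold limits and symbol patterns. Gene order and chromosomes came from RefSeq for GRCm38.p6, an earlier build than that of the deposited values, so gene coordinates are given for the printed stretches only. Python 3.11.15, scipy 1.17.1 and edlib 1.3.9.post1 were used.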

Additional observations from a re-analysis of the deposited data

How the results depend on the processing

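Each count below is of measured members. A pseudocount of 5 TPM gave 1 higher and 5 lower members, against 5.01% higher and 8.28% lower of all measured genes. A mean of at least 5 TPM gave 1 higher and 4 lower of 8, against 8.34% and 12.9%. A 4-fold limit and the strict pattern without a closing letter each gave 1 higher member in place of 2. So did, chosen after seeing the data, summing members with coding sequences at least 95% identical. Of all measured genes, 2.38% were higher at the 4-fold limit, 8.35% with the strict pattern and 8.34% with summed paralogs. The number lower was 8 to 10 with a pseudocount of 0.1 TPM, no filter, median ratio rescaling, the strict pattern and summed paralogs. The shares of all genes lower were 18.3%, 11.5%, 12.9%, 15.3% and 15.3% in that order. With quantile normalization or a 4-fold limit the number lower was 6, against 11.8% and 5.89% of all genes. The summed TPM ratio of 0.176 was 0.199 after median ratio rescaling, 0.200 after quantile normalization, 0.583 without Cyp2f2 and 0.169 with the strict pattern. Of the 17 expressed members only Cyp4a12a changed sign under the pseudocounts and scalings tried, to 0.12 after quantile normalization. The cause of these shifts was not tested beyond the construction of each setting. No paired analysis was possible because each genotype has 1 library, which also left no replicate to leave out. Reads limit the values of Cyp2j6 (1 read in KO) and Cyp3a13 and Cyp4b1 (6 reads each in KO).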

Other observations

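Of 3 P450 enzymes whose symbols fall outside the naming pattern, 1 was higher in KO. Cyp51, which removes a methyl group from lanosterol in cholesterol synthesis, was 318 TPM in KO and 142 TPM in WT, a KO to WT ratio of 2.24. Its KO level stands above that of every P450 member. The prostanoid synthases Ptgis and Tbxas1, which belong to the same superfamily, were listed at 0 in KO and at 0.00734 and 0.331 TPM in WT.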
